A study of Homo sapiens with 3 samples.

Results

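The miRNAs described here are 5 mature miRNAs known to be induced in inflammation, namely hsa-miR-146a-5p, hsa-miR-146b-5p, hsa-miR-155-5p, hsa-miR-132-3p and hsa-miR-212-3p (hsa, for human, is left out below). They were taken by name from a table of 1149 mature human miRNAs, and all 5 were listed. They were measured by small RNA sequencing in CAL-27, an established line from a human squamous cell carcinoma of the tongue. There was 1 library in each of 3 groups. RR was the radioresistant group, cloned from cells given 2 Gy of X-rays a day for 5 days in each of 2 cycles, with 2 weeks of recovery after each cycle. Mock, by the series' design text, had received 1 dose of 2 Gy, and CC was the untreated control group. All 3 were clones of the same line. The tag that names a 2 Gy dose stands on the RR library, and the tag that names irradiation without a dose stands on the Mock library, so every direction below refers to libraries as they are labelled. Whether a library came from a single clone or from several is not stated. With 1 library per group there is no replicate check and no p-value. All intervals are 95% intervals for counting error in these libraries, and a ratio compares 2 libraries, not the treatments. They leave out any error from PCR, since no molecular identifiers tell copied reads from separate molecules.

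A miRNA is cut from a hairpin precursor, and the arm that is kept in the Argonaute protein recognises mRNAs through its seed, bases 2 to 8 from the 5′ end. miR-146a and miR-146b are transcribed in response to NF-kB, the transcription factor of Toll-like receptor and interleukin-1 signalling, and repress TRAF6 and IRAK1, the adaptor and kinase that carry this signal, which makes them a brake on it. miR-155 is induced by NF-kB and AP-1 and represses SOCS1 and INPP5D, both inhibitors of immune signalling, so that it mostly amplifies responses. miR-132 and miR-212 lie side by side in 1 cluster induced by the cAMP-responsive factor CREB, and miR-132 is best known for its induction by activity in neurons.

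The mature sequences show how the 5 fall into 3 seed groups. They are given 5′ to 3′ from RefSeq (GRCh38.p14), with the seed in capitals, and all 10 mature sequences of the 5 hairpins were identical to those in the deposited table.
miR-146a-5p: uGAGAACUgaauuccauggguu
miR-146b-5p: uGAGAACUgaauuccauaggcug
miR-155-5p: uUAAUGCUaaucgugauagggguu
miR-132-3p: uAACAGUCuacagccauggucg
miR-212-3p: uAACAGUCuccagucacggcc

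miR-146a-5p and miR-146b-5p had 20 of 22 compared bases in common, and differed by G18A and U21C (miR-146a-5p base, position from the 5′ end, miR-146b-5p base). miR-132-3p and miR-212-3p differed at 4 of 21 bases, namely A10C, C14U, U17C and U20C, all outside the seed. No other listed miRNA carried any of these seeds, and miR-155-5p was the only one listed with its own. The handling of reads that match both miR-146a-5p and miR-146b-5p is not stated, so the split between them is uncertain, above all for the much rarer miR-146b-5p. miR-155-5p, miR-132-3p and miR-212-3p had no near-identical neighbour (2 mismatches or fewer) in the table.

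The 5 come from 4 places in the genome (GRCh38). miR-146a-5p lies at chr5:160485372-160485393 on the plus strand, inside an exon of the long non-coding RNA gene MIR3142HG in GENCODE 29. miR-155-5p lies at chr21:25573983-25574006 on the plus strand, inside an exon of the long non-coding RNA gene MIR155HG. miR-146b-5p, at chr10:102436520-102436542 on the plus strand, overlapped no other annotated gene, and the nearest protein-coding gene was CUEDC2, 3859 bases away. miR-132-3p, at chr17:2049929-2049950, and miR-212-3p, at chr17:2050290-2050310, are on the minus strand with 262 bases between their hairpins, and overlapped no other annotated gene.

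The libraries held 10473400 reads in RR, 10632785 in Mock and 10769990 in CC, of which reads of listed miRNAs made up 20.5%, 23.2% and 16.3%. Values are in rpm, reads per 1000000 reads of that total, and 3 reads, taken as the floor, correspond to 0.279 to 0.286 rpm. Squamous epithelial markers were abundant in every library, with a summed level of 44137 rpm in RR, 28369 rpm in Mock and 37902 rpm in CC over 5 miRNAs. Nearly all of it was miR-205-5p and miR-200c-3p, and the markers did not move together. miR-205-5p was 1.83-fold lower in Mock than in CC (1.82 to 1.84). miR-200c-3p was 1.19-fold higher (1.18 to 1.19) and miR-141-3p 2.07-fold higher (1.73 to 2.49).

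The 5 miRNAs summed to 1030 rpm in RR, 2463 rpm in Mock and 914 rpm in CC, or 0.502%, 1.06% and 0.562% of the reads of listed miRNAs. miR-146a-5p and miR-155-5p made up nearly all of this, while miR-146b-5p and miR-132-3p stood near the 10 rpm used as a minimum below, and miR-212-3p was close to absent.

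miR-146a-5p, the abundant miR-146, was far higher in the library labelled Mock than in the others. It had 4848 reads in RR, 16915 in Mock and 4341 in CC, which are levels of 463 rpm in RR (450 to 476), 1591 rpm in Mock (1567 to 1615) and 403 rpm in CC (391 to 415). RR and CC were thus close and Mock stood apart. Among all listed miRNAs its level ranked 49th in RR, 23rd in Mock and 47th in CC.

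miR-146b-5p, the same seed from another chromosome, was also highest in Mock, with RR between Mock and CC. Its 123 reads in RR, 188 in Mock and 69 in CC correspond to 11.7 rpm (9.76 to 14.0), 17.7 rpm (15.2 to 20.4) and 6.41 rpm (4.98 to 8.11). None of these intervals overlap.

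miR-155-5p was highest in Mock as well, though by less than miR-146a-5p. Its level was 537 rpm in RR (523 to 551), 842 rpm in Mock (824 to 859) and 487 rpm in CC (473 to 500), from 5626, 8951 and 5240 reads. The RR interval lay above that of CC by a narrow margin.

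miR-132-3p had the opposite order, and was lowest in Mock. It stood at 17.9 rpm in RR (15.4 to 20.6), 12.7 rpm in Mock (10.6 to 15.0) and 18.2 rpm in CC (15.7 to 20.9), from 187, 135 and 196 reads. The RR and CC intervals overlap almost entirely. Its cluster mate miR-212-3p had 1 read in RR, 1 in Mock and 0 in CC. All are below the floor of 3 reads, so no fold is given and no difference was detectable at this depth.

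**Figure D1:**
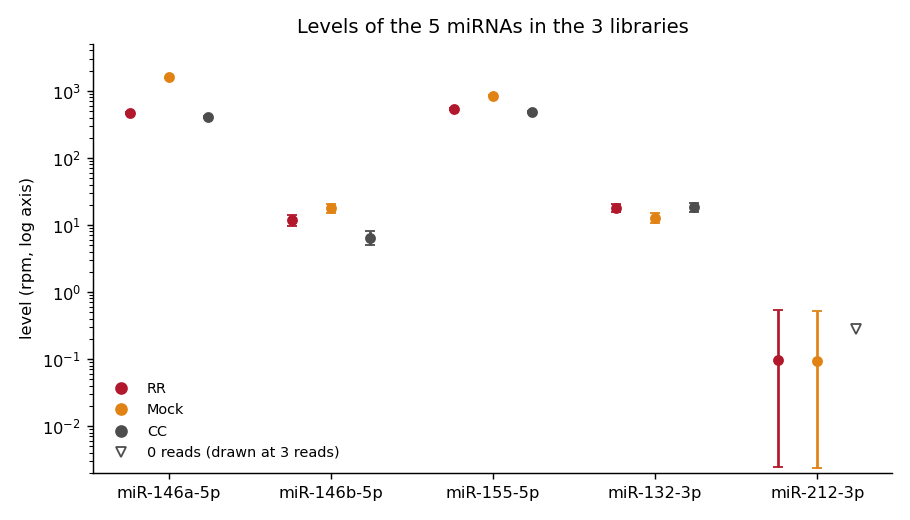
Level of each of the 5 miRNAs (rpm, log axis) in the RR, Mock and CC libraries, 1 point per library with its exact 95% Poisson interval; the open triangle marks 0 reads, drawn at 3 reads. miR-146a-5p at 1591 rpm, miR-146b-5p at 17.7 rpm and miR-155-5p at 842 rpm are highest in Mock, and miR-132-3p at 12.7 rpm is lowest there.

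The order of the members by level also differed between libraries. These are reads of mature miRNAs of 21 to 24 bases, so length matters little, but adapters ligate to each miRNA with its own efficiency and the order is that of reads. miR-155-5p over miR-146a-5p was 1.16-fold in RR (1.12 to 1.21), 0.529-fold in Mock (0.516 to 0.543) and 1.21-fold in CC (1.16 to 1.26), so that miR-155-5p led in RR and CC and miR-146a-5p in Mock. miR-132-3p over miR-146b-5p was 1.52-fold in RR (1.20 to 1.92), 0.718-fold in Mock (0.571 to 0.901) and 2.84-fold in CC (2.15 to 3.79), again with Mock alone below 1. miR-146a-5p over miR-146b-5p was 39.4-fold in RR (33.0 to 47.5), 90.0-fold in Mock (77.9 to 104) and 62.9-fold in CC (49.6 to 81.0). Such ratios within a library are the same under any scaling of the libraries.

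Mock over CC compares the library labelled Mock, exposed once by the series' design text, with the untreated one. Both miR-146 members were past 2-fold, miR-155-5p was higher by less than that, and miR-132-3p was lower by less than that. A miRNA was counted as past 2-fold when its mean over the 3 libraries was 10 rpm or more and its log2 ratio, after adding 1 rpm, was 1 or more in size. The minimum was met by 4 of the 5 members (all except miR-212-3p) and by 208 miRNAs in all. In Mock over CC 2 of the 4 were higher, beside 12.0% of the 208, and 0 were lower, beside 3.85%. miR-146b-5p, with a mean of 11.9 rpm, met the minimum only through Mock, since its RR and CC levels alone average below 10 rpm. miR-146a-5p was 3.95-fold higher in Mock (3.82 to 4.08), the 4th highest log2 ratio of the 208, and miR-146b-5p 2.76-fold higher (2.08 to 3.69), the 10th. miR-155-5p was 1.73-fold higher (1.67 to 1.79), and its log2 ratio of 0.79 ranked 43rd. miR-132-3p had a ratio of 0.698 (0.556 to 0.873), the 34th lowest. With reads of both miR-146 miRNAs summed, Mock over CC was 3.93-fold (3.80 to 4.06). This sum does not depend on how shared reads were split between them, provided that each was counted once, which is not stated. The log2 ratio of miR-146b-5p was 1.33 and no longer reached 2-fold as a share of the reads of listed miRNAs (0.87) and with 10 rpm added in place of 1 (0.75). As a share of the reads of listed miRNAs, the log2 ratio of miR-146a-5p went from 1.98 to 1.47. That of miR-155-5p went from 0.79 to 0.28, that of miR-132-3p from -0.49 to -0.97, and the median of the 208 from 0.28 to -0.22. The sizes of these ratios therefore rest in part on the scale.

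RR over CC compares the radioresistant with the untreated library. The miRNAs of the group were close between the 2 libraries, except for miR-146b-5p. None of the 4 members was past 2-fold, beside 0.962% of the 208 that were higher and 0.481% that were lower. miR-146b-5p was 1.83-fold higher in RR (1.35 to 2.50), and its log2 ratio of 0.78 was the 9th highest of the 208. miR-146a-5p was 1.15-fold higher (1.10 to 1.20) and miR-155-5p 1.10-fold higher (1.06 to 1.15), and miR-132-3p had a ratio of 0.981 (0.799 to 1.20). The median of the 208 was 1.28-fold, so these 3 were below the median miRNA and ranked 153rd, 167th and 190th from the top. When the libraries were scaled by the median ratio, which took that median log2 ratio from 0.36 to -0.02, miR-146a-5p stood at -0.18, miR-155-5p at -0.24, miR-132-3p at -0.39 and miR-146b-5p at 0.44. The direction of the first 2 therefore rests on the scale.

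RR over Mock compares the library labelled RR with the one labelled Mock. miR-146a-5p was the 1 member past 2-fold, at a ratio of 0.291 (0.282 to 0.300), which is 3.44-fold lower in RR and the 5th lowest log2 ratio of the 208. In this comparison 1 of the 4 members was lower, beside 4.81% of the 208, and 0 were higher, beside 8.17%. miR-155-5p was 1.57-fold lower in RR (1.52 to 1.62) and miR-146b-5p 1.51-fold lower (1.19 to 1.91), whereas miR-132-3p was 1.41-fold higher (1.12 to 1.77). RR over Mock and RR over CC share the RR library, and both comparisons with CC share that library, so the 3 sets of ratios are not independent of each other.

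**Figure D2:**
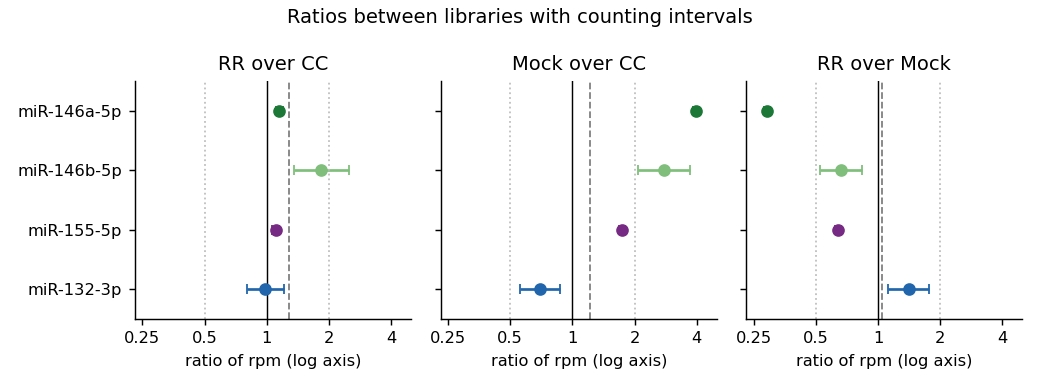
Ratio of rpm (log axis) for 4 members in RR over CC, Mock over CC and RR over Mock, with exact 95% counting intervals; the solid line is 1, dotted lines are 2-fold either way and the dashed line is the median of 208 miRNAs. miR-146a-5p lies at 3.95 in Mock over CC and 0.291 in RR over Mock, and miR-132-3p lies on the other side of 1 in both.

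**Figure D3:**
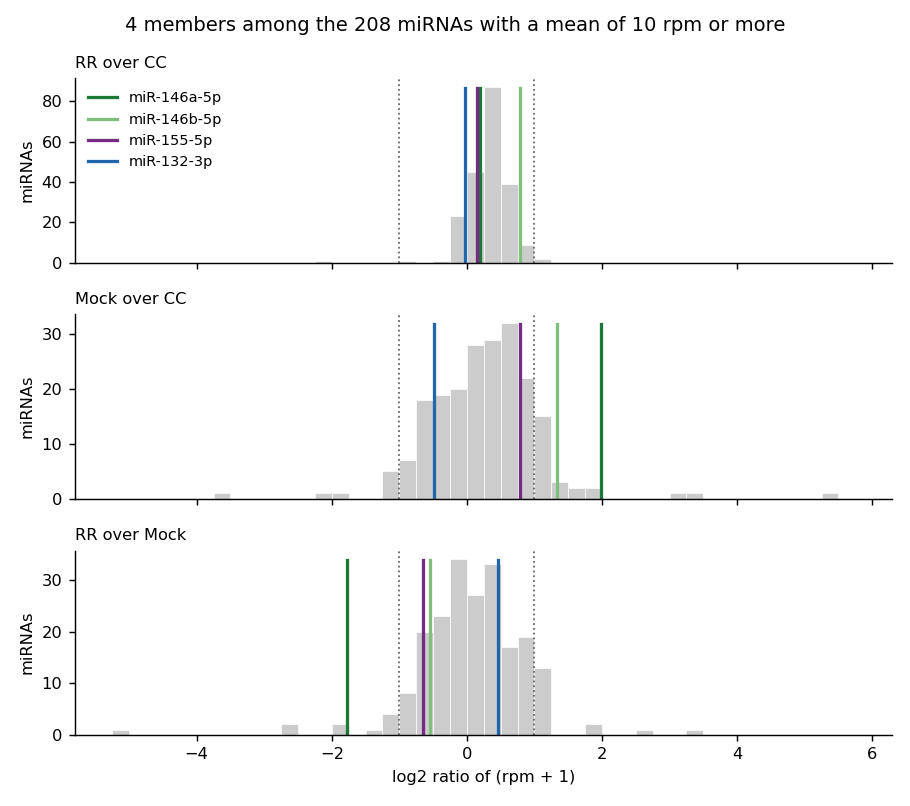
Number of miRNAs by log2 ratio of (rpm + 1), for the 208 whose mean reached 10 rpm, 1 panel per comparison, with coloured lines at 4 members and dotted lines at 2-fold. In RR over CC all 4 lie inside the dotted lines, and in Mock over CC miR-146a-5p at 1.98 and miR-146b-5p at 1.33 lie beyond them.

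Ratios to Mock followed the GC content of the miRNA, which the members share only in part. Over the 208 miRNAs the log2 ratio Mock over CC had a Spearman correlation of -0.55 with GC content and changed by -0.29 per 10 percentage points of GC on a linear trend, while for RR over CC the correlation was 0.05. GC content was 37.5% in miR-155-5p, 40.9% in miR-146a-5p, 43.5% in miR-146b-5p and 50% in miR-132-3p. With the linear trend removed, the Mock over CC log2 ratio of miR-146a-5p was 1.72 and that of miR-146b-5p 1.15, both still past 2-fold, and that of miR-155-5p 0.43, beside a median of 0.32 for the 208. miR-132-3p stayed at -0.49, since the correction leaves miRNAs of 50% GC where they are. RR over Mock became -1.50 for miR-146a-5p, -0.35 for miR-146b-5p and -0.26 for miR-155-5p.

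**Figure D4:**
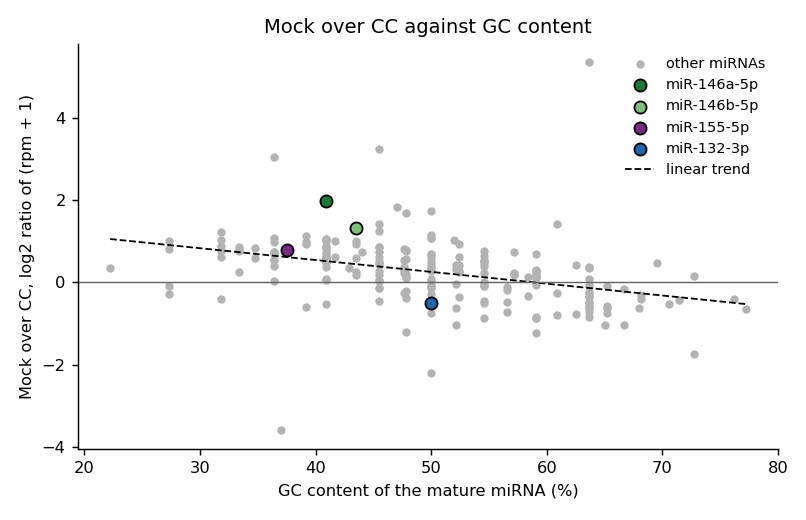
Log2 ratio of (rpm + 1), Mock over CC, against the GC content of the mature miRNA (%), for 208 miRNAs (grey) with 4 members in colour and the linear trend dashed. miR-146a-5p (40.9% GC) and miR-146b-5p (43.5%) lie above the trend, miR-155-5p (37.5%) close to it and miR-132-3p (50%) below it.

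Some blood miRNAs were also higher in Mock, and leukocytes are rich in miR-146a and miR-155. The erythroid markers miR-486-5p, miR-451a, miR-144-3p and miR-144-5p summed to 12.2 rpm in RR, 408 rpm in Mock and 9.47 rpm in CC, most of it miR-486-5p, and all 4 were detected in Mock, against 2 in RR and 2 in CC. Of 5 leukocyte markers 4 were analysed here, without miR-223-3p, and they summed to 5.35 rpm in RR, 6.77 rpm in Mock and 4.27 rpm in CC. Most of these reads were miR-342-3p, with 5.25, 4.80 and 4.18 rpm. The defining leukocyte miRNA miR-142-3p had 0 reads in RR, 8 in Mock and 1 in CC, miR-142-5p had 0, 5 and 0, and miR-150-5p had 1, 8 and 0. Higher levels in Mock were not limited to blood miRNAs. Of the muscle markers, miR-206 was 14.4-fold higher in Mock than in CC (9.07 to 24.4). By contrast, miR-1-3p had a ratio of 0.942 (0.899 to 0.987), and miR-133a-3p had 7 reads in Mock and 11 in CC. Of 4 mesenchymal markers 3 were analysed here, without miR-214-3p, and they summed to 6.49 rpm in RR, 5.64 rpm in Mock and 6.41 rpm in CC. Most of these reads were miR-143-3p, with 66 in RR, 47 in Mock and 62 in CC. miR-199a-5p had 0 reads in RR, 12 in Mock and 2 in CC, whereas miR-145-5p had 2, 1 and 5. The part of leukocyte, erythroid or other RNA in the Mock results was not tested.

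Each hairpin gives 2 mature arms, and the share of the minor arm can be compared between libraries whatever the scale. The hairpins of MIR146A, MIR146B, MIR132 and MIR212 are shown 5′ to 3′ from RefSeq, with both mature arms in capitals, to show the 2 arms whose reads are compared.
MIR146A: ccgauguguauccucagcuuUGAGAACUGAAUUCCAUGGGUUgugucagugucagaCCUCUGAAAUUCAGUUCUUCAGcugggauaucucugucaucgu
MIR146B: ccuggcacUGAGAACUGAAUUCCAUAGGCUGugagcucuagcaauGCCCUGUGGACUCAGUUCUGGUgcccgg
MIR132: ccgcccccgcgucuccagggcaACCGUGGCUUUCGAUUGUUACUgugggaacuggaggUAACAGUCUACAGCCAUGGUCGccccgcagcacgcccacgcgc
MIR212: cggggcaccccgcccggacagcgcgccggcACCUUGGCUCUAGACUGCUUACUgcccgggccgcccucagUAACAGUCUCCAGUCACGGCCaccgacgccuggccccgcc

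In MIR132 the arms moved apart. miR-132-5p, the minor arm, had 40 reads in RR, 69 in Mock and 34 in CC, or 3.82, 6.49 and 3.16 rpm, and was 2.06-fold higher in Mock than in CC (1.34 to 3.20), where miR-132-3p was lower. miR-132-5p made up 17.6% of the reads of both arms in RR (12.9% to 23.2%), 33.8% in Mock (27.4% to 40.8%) and 14.8% in CC (10.5% to 20.0%). The ratio of the arms was 2.94-fold higher in Mock than in CC (1.81 to 4.85), and 2.68-fold with the GC trend removed (1.65 to 4.43). For RR over CC this ratio of ratios was 1.23 (0.726 to 2.10), not distinguishable from 1 at this depth. For RR over Mock it was 0.419 (0.260 to 0.670), and 0.463 with the GC trend removed (0.287 to 0.739). Opposite directions of the arms were also seen in another hairpin, chosen after its values were seen. In Mock over CC the log2 ratio was 0.70 for miR-185-5p and -0.71 for miR-185-3p. How common such shifts were over all hairpins was not tested.

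In MIR146B the share of the minor arm was lowest in Mock, where the main arm was highest. miR-146b-3p had 30 reads in RR, 14 in Mock and 14 in CC, while miR-146b-5p had 123 in RR, 188 in Mock and 69 in CC. The miR-146b-3p share of both arms was 19.6% in RR (13.6% to 26.8%), 6.93% in Mock (3.84% to 11.4%) and 16.9% in CC (9.54% to 26.7%). The arm ratio was 0.369-fold in Mock over CC (0.154 to 0.881) and 0.503-fold with the GC trend removed (0.210 to 1.20), and so not distinguishable from 1 with that trend removed. In RR over Mock the arm ratio was 3.26-fold (1.60 to 6.95). It was 2.33-fold with the GC trend removed (1.14 to 4.96), an interval still above 1. miR-146b-3p has a GC content of 59.1%. In RR both arms were higher than in CC, miR-146b-3p by 2.20-fold (1.13 to 4.50). In Mock over CC miR-146b-5p was 2.76-fold higher, while miR-146b-3p had a ratio of 1.01 (0.448 to 2.29).

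**Figure D5:**
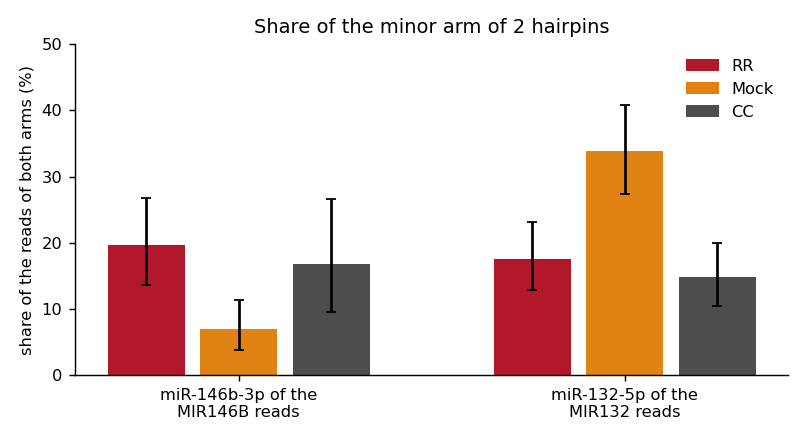
Share of the minor arm in the reads of both arms (%), for miR-146b-3p of MIR146B and miR-132-5p of MIR132, in RR, Mock and CC, 1 bar per library with its exact 95% binomial interval. Mock has the lowest share for MIR146B, 6.93%, and the highest for MIR132, 33.8%.

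The remaining hairpins were nearly one-sided. miR-146a-3p had 0 reads in RR, 11 in Mock and 1 in CC, which is a ratio of 11.1 in Mock over CC with an interval of 1.62 to 480, and was at most 0.0650% of the reads of both arms. Its reads in RR and CC are below the floor of 3 reads, so the size of that ratio is uncertain. miR-155-3p had 1, 2 and 0 reads. MIR212 was the 1 hairpin whose annotated member was the minor arm, since miR-212-5p had 8 reads in RR, 6 in Mock and 12 in CC, against 1, 1 and 0 reads of miR-212-3p. miR-3142, from the same host transcript as miR-146a, had 2, 1 and 0 reads, so nothing can be said of it.

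The starts of the 2 host transcripts are shown because miR-146a-5p and miR-155-5p were both higher in Mock. They cover 250 bases before and 50 after the RefSeq start (GRCh38.p14, plus strand), with capitals for matches to an NF-kB consensus, the AP-1 element TGAGTCA or the cAMP response element TGACGTCA, searched on both strands. Start regions of the miR-146b and miR-132 transcripts were not analysed here.
MIR3142HG, chr5:160468001-160468300: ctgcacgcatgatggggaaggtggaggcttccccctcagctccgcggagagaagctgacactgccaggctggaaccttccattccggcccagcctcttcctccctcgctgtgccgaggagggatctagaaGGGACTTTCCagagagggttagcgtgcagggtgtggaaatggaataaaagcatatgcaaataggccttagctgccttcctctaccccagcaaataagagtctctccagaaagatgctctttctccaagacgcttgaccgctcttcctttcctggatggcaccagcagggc
MIR155HG, chr21:25561895-25562194: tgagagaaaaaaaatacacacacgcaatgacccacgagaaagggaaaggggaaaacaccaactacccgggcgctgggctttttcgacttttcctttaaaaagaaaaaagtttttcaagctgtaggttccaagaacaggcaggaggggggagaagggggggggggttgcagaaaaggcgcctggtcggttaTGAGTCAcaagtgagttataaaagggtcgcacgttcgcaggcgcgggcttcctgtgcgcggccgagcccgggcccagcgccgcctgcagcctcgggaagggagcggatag

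The MIR3142HG window held 1 NF-kB match, GGGACTTTCC, which begins 120 bases before the start, and no AP-1 element. The MIR155HG window held 1 AP-1 element, which begins 60 bases before the start, and no NF-kB match. Of 35116 such windows over all genes 11.3% held an NF-kB match, 4.95% an AP-1 element and 1.85% a cAMP response element, and neither window here held the last. A match is a run of letters and was not tested for binding.

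Other miRNAs known to be induced by NF-kB or Toll-like receptors were read from a list of 9. In Mock over CC 1 of the 6 that met the minimum was past 2-fold higher, beside 12.0% of the 208, and 0 lower, beside 3.85%, with a median log2 ratio of 0.81 beside 0.28 for the 208. That 1 was miR-21-5p, which is also induced by AP-1 and STAT3, with a level of 6209 rpm in RR, against 36929 rpm in Mock and 4475 rpm in CC. The 3 others with the highest mean did not pass it. miR-221-3p and miR-222-3p, a cluster that represses the cell cycle inhibitor CDKN1B, were 1.74-fold (1.72 to 1.76) and 1.93-fold (1.85 to 2.01) higher in Mock, and the third, miR-125b-5p, stood at 1198 rpm in RR, 958 rpm in Mock and 898 rpm in CC. In RR over CC 0 of the 6 were past 2-fold, beside 0.962% of the 208 higher and 0.481% lower, with a median of 0.41 beside 0.36 for the 208. In RR over Mock 1 of the 6, miR-21-5p, was lower, beside 4.81% of the 208, and 0 were higher, beside 8.17%, with a median of -0.48 beside 0.06.

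The miRNAs with the most similar pattern over the 3 libraries differed between members. Likeness was the distance between log2(rpm + 1) values, each centred on its own mean, among the 208. Nearest to miR-146a-5p was miR-320c at a distance of 0.20, with 5.16 rpm in RR, 20.3 rpm in Mock and 5.39 rpm in CC, followed by miR-16-5p (0.44) and miR-103a-3p (0.45). miR-320c met the 10 rpm minimum only through its level in Mock. For miR-146b-5p the nearest were miR-196b-5p (0.08), let-7f-5p (0.18) and let-7g-5p (0.19). For miR-155-5p they were miR-335-3p (0.04), miR-9-3p (0.07) and miR-221-3p (0.10), and for miR-132-3p miR-1306-5p (0.04), miR-425-5p (0.09) and miR-3184-3p (0.09).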

How the data were processed

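Total RNA was made into small RNA libraries with a ligation-based kit and these were sequenced on an Illumina instrument, per the labels' protocols. Bowtie and GRCh38 are named in the submitters' processing notes without a version or role; for trimming, mismatches and multi-mapping nothing is stated. The authors deposited 3 columns called TPM, which behave as RPM: 100% of values were whole multiples, within 0.01 of a read, of 1 step per library, and whole reads were recovered from it. Columns were matched to groups through the treatment tags and titles.

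With 1 library per group no count model could be fitted. Levels carry exact Poisson intervals, ratios and arm shares exact Clopper-Pearson limits, and ratios of arm ratios exact conditional limits. Named miRNAs were the 5 members, their other arms, miR-3142, a list of 9 induced miRNAs (those past 2-fold and the 3 others with the highest mean) and the 3 nearest patterns per member. The members, lists and alternatives were chosen with earlier results of these data known. miR-147b-3p, miR-187-3p, miR-301a-3p and the arms of miR-185 were named after their values were seen. The computation was tested on simulated data. Tools were scipy 1.17.1, numpy 2.4.6, matplotlib 3.10.9 and pandas 2.3.3 in Python 3.11.15.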

Additional observations from a re-analysis of the deposited data

How the results depend on the processing

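Of the members, 2 were past 2-fold in Mock over CC, 1 in RR over Mock and 0 in RR over CC. In Mock over CC the count was 1 with 10 rpm added, 1 as a share of the reads of listed miRNAs, 1 with a minimum mean of 100 rpm and 1 with reads summed over a shared seed, which makes a single miR-146 item by construction; miR-146a-5p, alone or in that sum, was the one counted in each. At 4-fold it was 0 in both Mock over CC and RR over Mock. At 1.5-fold it was 3 in Mock over CC (miR-146a-5p, miR-146b-5p and miR-155-5p), 1 in RR over CC (miR-146b-5p) and 2 in RR over Mock (miR-146a-5p and miR-155-5p). Under 0.1 rpm added, median-ratio scaling, scaling without the 10 most abundant miRNAs, removal of the GC trend, a minimum mean of 1 rpm and no minimum, the 3 counts did not change. Over 81 log2 ratios recomputed for the 4 members, 50 stayed within the counting interval of the reported ratio and 6 changed sign. All 6 were miR-146a-5p and miR-155-5p in RR over CC under the 3 other scalings. The 81 include ratios of reads summed over a shared seed, set in place of miR-146a-5p, miR-146b-5p and miR-132-3p. For miR-146b-5p that sum was mostly miR-146a-5p reads, so it is another quantity. Removing the GC trend from the arm ratios was chosen after the data were seen. Reads limit miR-146b-5p, miR-132-3p and the minor arms most, and miR-212-3p could not be compared. No paired analysis was possible because each group has 1 library.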

Other observations

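miR-147b-3p, which is induced by Toll-like receptors in macrophages, lay below the 10 rpm minimum and had 15 reads in RR, 49 in Mock and 17 in CC. It was 2.92-fold higher in Mock than in CC (1.65 to 5.41) and had a ratio of 0.907 in RR over CC (0.422 to 1.93). It was named after its values were seen, and the part that GC content or other cells have in its level was not tested.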
